A study of Mus musculus with 18 samples.

Results

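This report follows 9 genes of heterotrimeric G-protein signalling in invariant natural killer T (iNKT) cells of the mouse thymus. They are Gng2, which encodes a gamma subunit, Gnai2, which encodes an inhibitory alpha subunit, and 7 regulators of G-protein signalling, Rgs1, Rgs2, Rgs3, Rgs10, Rgs14, Rgs16 and Rgs19. The genes were selected on their symbols with earlier results of these data known, that is, with counts over the 6 groups in view. Which of these values led to the choice is not recorded, so all levels and differences of the 9 genes are given as a description, without a test. All 9 were found among 15582 genes counted at least once in the series, and all 9 were among the 11118 genes that passed the filter on low counts.

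The study asked how a weakened T cell receptor (TCR) signal changes the subsets of iNKT cells. Thymic NKT1, NKT2 and NKT17 cells were sorted from WT and SKG mice, both labelled with the BALB/c background, in 3 libraries for each of the 6 groups, 18 libraries in all. In the SKG line every cell has Zap70, a kinase that passes on the TCR signal, in a form weakened by a point mutation. The SKG line had been crossed to BALB/cJ, and WT and SKG animals were bred separately from an earlier generation of that cross, so genotype and breeding line cannot be told apart. The labels name no treatment, and the age, sex and number of mice behind a library are not given in the sources used here. All cells bound the CD1d tetramer loaded with alpha-galactosylceramide. NKT1 cells were sorted as ICOS-low CD49a+, NKT2 cells as CD49- Sdc-1- ICOS-high CD4-high TCRbeta-high, and NKT17 cells as CD49- ICOS-high Sdc-1+.

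A heterotrimeric G protein relays the signal of a seven-transmembrane receptor. The receptor makes the alpha subunit exchange GDP for GTP, after which alpha and the beta-gamma dimer part and each acts on its own effectors. RGS proteins speed up the hydrolysis of GTP by the alpha subunit and so shorten the signal. In lymphocytes, chemokine receptors and receptors for sphingosine-1-phosphate signal largely through Gi proteins, and RGS proteins are known to limit migration towards their ligands.

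Total counts per library ran from 4391029 to 8895917. The NKT17 marker Il23r was at 451 to 457 CPM (read counts scaled by library size) in WT NKT17 and 236 to 251 CPM in SKG NKT17, against at most 0.979 CPM in any other library. Il17re, another NKT17 marker, was at 194 to 248 CPM in WT NKT17 and 234 to 251 CPM in SKG NKT17, against at most 1.34 CPM elsewhere. The 6 NKT17 markers summed to 2382 to 2483 CPM in WT NKT17 and 2389 to 2453 CPM in SKG NKT17, against at most 14.3 CPM elsewhere. Single markers differed between the genotypes, with 1 called higher (Ccr6, log2 5.62) and 2 called lower in SKG NKT17. The 6 NKT1 markers summed to at least 3973 CPM in the NKT1 libraries and at most 422 CPM elsewhere. The 6 NKT2 markers, several of which NKT17 cells also carry, separated NKT1 libraries (514 to 745 CPM) from the others (1517 to 2559 CPM). Itga1 (CD49a), Icos, Cd4 and Sdc1 in these lists were also used by the sort. Zap70 had mean levels of 397 to 789 CPM over the 6 groups. SKG means were below WT means in NKT1 (477 against 563 CPM), NKT2 (397 against 519.8 CPM) and NKT17 (527 against 789 CPM). SKG libraries lay below WT libraries in NKT2 (at most 436 against at least 483 CPM). The same held in NKT17 (at most 565 against at least 716 CPM), while the NKT1 libraries overlapped. The part of these Zap70 differences in the levels of other genes was not tested. The Zap70 count does not show the point mutation. Nothing in the labels says whether the libraries of a group came from separate mice, so the spread between them may be technical.

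Gng2 and Rgs16 were the 2 members that passed the study's thresholds (adjusted p under 0.1 and a fold of at least 1.5) between SKG and WT NKT2 cells, in opposite directions, and the 250 bases before their RefSeq start sites are shown for that reason. The sequences are from RefSeq (GRCm38.p6) and were placed on build NCBIM37 by exact match. Capitals mark matches, on either strand, to TGANTCA (AP-1), GGAAA (the core of the NFAT site) or the NF-kB pattern of GGG and CC with any 5 bases between them, some of which overlap each other.
Gng2, minus strand, chr14:20795916-20796165: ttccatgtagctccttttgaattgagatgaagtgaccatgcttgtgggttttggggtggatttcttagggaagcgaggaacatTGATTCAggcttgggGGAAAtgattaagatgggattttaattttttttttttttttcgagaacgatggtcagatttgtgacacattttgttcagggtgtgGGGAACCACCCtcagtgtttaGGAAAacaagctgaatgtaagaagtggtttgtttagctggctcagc
Rgs16, plus strand, chr1:155587233-155587482: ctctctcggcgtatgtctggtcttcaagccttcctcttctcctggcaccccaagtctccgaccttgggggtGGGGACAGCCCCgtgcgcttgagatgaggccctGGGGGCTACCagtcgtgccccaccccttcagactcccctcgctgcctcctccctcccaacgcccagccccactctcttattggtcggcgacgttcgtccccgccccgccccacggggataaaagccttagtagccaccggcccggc
Windows were available for 6 of the 9 members, with none for Gnai2, Rgs1 or Rgs14. Among the member windows read, the Gng2 window held the only AP-1 match, at bases -167 to -161 from the start, and GGAAA at -152 and -46. This window lies within the annotated gene, in an intron of transcripts that start further upstream, and holds no exon. The Rgs16 window held no match to TGANTCA or GGAAA, and 2 separate places that match the NF-kB pattern, and its last 4 bases are annotated as exon. Of 32851 mouse promoter windows of this length, 6.75% held TGANTCA, 55.6% held GGAAA and 45.8% held the NF-kB pattern, so GGAAA and the NF-kB letters are common. Neither window held the CRE letters TGACGTCA, found in 1.55% of the windows, or the letters TATAAA of the core promoter box, found in 12.4%. A match is a description of letters and was not tested as a binding site.

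By position, 3 of the genes lie on chromosome 1. Rgs2 (145846468 to 145851291) and Rgs1 (146091102 to 146096372), both on the minus strand, are separated by 239810 bases that hold 1 annotated gene, Rgs13, which had no count in any library. Rgs16 lies at 155587479 to 155592598 on the plus strand. The others are Gng2 on chromosome 14 (20691781 to 20796849), Gnai2 on chromosome 9 (107516461 to 107537673), Rgs3 on chromosome 4 (62220881 to 62364052), Rgs10 on chromosome 7 (135517135 to 135562272), Rgs14 on chromosome 13 (55471093 to 55486048) and Rgs19 on chromosome 2 (181423124 to 181428682), all in NCBIM37. No exon of the 9 genes overlaps an exon of another gene in that annotation.

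Compared per length, as CPM per kilobase of exon averaged over the 18 libraries, Gnai2 was the most abundant at 399 ± 43.9 (SD over libraries). Rgs19 followed at 151 ± 17.6 and Rgs10 at 113 ± 36.2. Rgs2 (52.2 ± 22.6), Rgs1 (46.0 ± 49.6), Rgs14 (38.5 ± 5.35) and Rgs3 (24.9 ± 11.9) formed a middle range in which neighbours overlapped. Gng2 stood at 12.9 ± 7.93 and Rgs16 at 0.920 ± 1.56. With the longest transcript as the length, Rgs3 was at 52.0 and passed Rgs14 at 40.7, and Rgs10 (221) came level with Rgs19 (222).

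**Figure D1:**
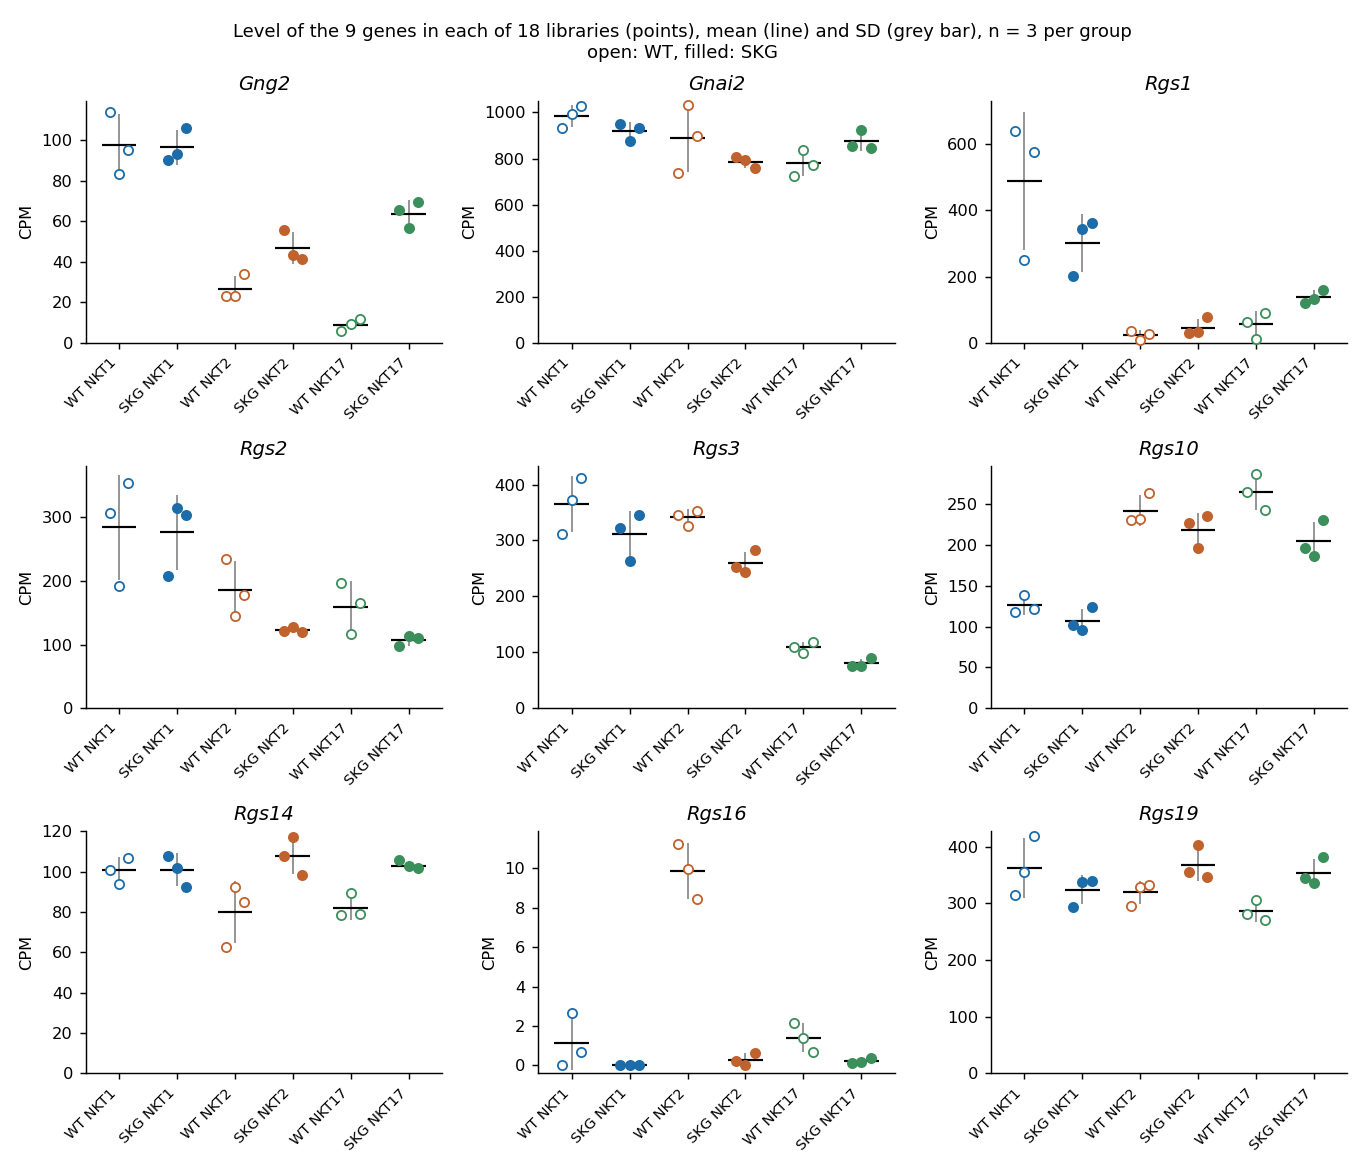
Level of each of the 9 genes (y axis, CPM) in the 6 groups (x axis, n = 3 libraries each). Open points are WT and filled points SKG libraries, lines are means and grey bars SD; Gng2 falls from 97.4 to 9.04 CPM across the WT subsets but only to 46.8 CPM across the SKG subsets, and Rgs16 is near 0 outside WT NKT2.

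Gng2 encodes the gamma subunit 2, which with a beta subunit forms the dimer that anchors the G protein at the membrane and activates effectors of its own. In WT cells it graded over the subsets. NKT1 libraries had 114, 83.1 and 95.3 CPM, NKT2 libraries 23.3, 23.1 and 34.1 CPM, and NKT17 libraries 6.05, 9.39 and 11.7 CPM. The 3 groups did not overlap. In SKG cells the NKT1 libraries overlapped those of WT (90.1, 93.1 and 106 CPM), while NKT2 libraries had 55.7, 43.5 and 41.3 CPM and NKT17 libraries 65.7, 56.5 and 69.3 CPM. In order of mean level the groups ran WT NKT1, SKG NKT1, SKG NKT17, SKG NKT2, WT NKT2 and WT NKT17, and among these neighbours the libraries of the NKT1 groups alone overlapped. All SKG NKT2 libraries lay above all WT NKT2 libraries, and all SKG NKT17 libraries lay above all WT NKT17 libraries.

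The differences of Gng2 between SKG and WT, on the log2 scale from a quasi-likelihood negative binomial fit in edgeR to all 18 libraries, were -0.02 (SE 0.19) in NKT1, 0.80 (SE 0.20) in NKT2 and 2.80 (SE 0.22) in NKT17, the last a 6.96-fold higher level. A gene was called where the Benjamini-Hochberg adjusted p over all tested genes was under 0.1 and the fold at least 1.5, the thresholds of the study. For the 9 genes a call says only that the values passed these thresholds. Gng2 was called in NKT2 and NKT17. The difference in NKT17 was called under each of 25 alternative analyses (2.58 to 3.04). The difference in NKT2 was called in 24 of 25, and was 0.57 and no longer called without the 6 libraries whose titles carry the token 7_10. Within the tokens that both genotypes share, single WT and SKG libraries differed by 2.76 and 2.24 in NKT17 and by 1.26 and 0.35 in NKT2.

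The difference of Gng2 between SKG and WT itself differed between subsets, by 2.82 (SE 0.29) for NKT17 minus NKT1 and by 2.00 (SE 0.29) for NKT17 minus NKT2. Both were called under all 25 alternatives. For NKT2 minus NKT1 it was 0.81 (SE 0.28), which was not called, except in DESeq2 (0.80) and without WT NKT2 replicate 3 (1.02). The order of the subsets for Gng2 therefore was not the same in the 2 genotypes, since NKT17 was the lowest group in WT (NKT17 over NKT2 -1.55, SE 0.22) and was above NKT2 without overlap in SKG (0.45, SE 0.19, not called, but called without SKG NKT2 replicate 1 at 0.59). NKT1 was the highest in both, by 1.86 (SE 0.20) over NKT2 and 3.41 (SE 0.22) over NKT17 in WT, and by 1.04 (SE 0.19) and 0.60 (SE 0.19) in SKG. The smallest of these, NKT1 over NKT17 in SKG, was not called without SKG NKT1 replicate 3 (0.52), without SKG NKT17 replicate 2 (0.52) or with upper-quartile scaling (0.56).

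SKG NKT17 libraries also held more RNA of Cd79b and Cd8b1 than WT NKT17 libraries. Of the 5 B-cell markers with a count, the sum was 25.3 to 40.9 CPM against 8.10 to 11.5 CPM in WT, nearly all of it Cd79b (24.6 to 40.0 CPM, against 7.55 to 10.2 CPM in WT), while Ms4a1 and Ebf1 were at 0 in every SKG NKT17 library and Cd79a was at most 0.751 CPM. Of the 7 markers of double-positive thymocytes, the sum was 14.3 to 47.5 CPM against 5.27 to 12.5 CPM, mostly Cd8b1 (12.4 to 36.8 CPM), and Rag1, Rag2, Dntt and Arpp21 were at 0 in all NKT17 libraries of both genotypes. Of the 8 proliferation genes, 6 were called lower in SKG NKT17, with sums of 72.1 to 88.1 CPM against 139.6 to 279 CPM. The part of these differences in the Gng2 level was not tested. In sorted bulk cells, more cells with a transcript and more transcript per cell cannot be told apart.

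Gnai2, the most abundant inhibitory alpha subunit of lymphocytes, varied little. The lowest library, a WT NKT17 library, had 725 CPM and the highest, a WT NKT2 library, 1031 CPM. Group means ran from 779 ± 55.8 CPM in WT NKT17 to 986 ± 47.9 CPM in WT NKT1 (SD, n = 3), a ratio of 1.27. Gnai2 was called in 0 of the 12 comparisons by edgeR and by DESeq2, with an unadjusted p under 0.05 in 3. Its largest difference was NKT1 over NKT17 in WT, 0.34 (SE 0.10) on the log2 scale, where the libraries did not overlap.

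Rgs1, an RGS protein known to blunt chemokine receptor signals in T and B cells, was highest in NKT1. WT NKT1 libraries had 639, 251 and 575 CPM and SKG NKT1 libraries 201, 345 and 360.4 CPM. WT NKT2 libraries had 37.4, 9.96 and 27.3 CPM and SKG NKT2 libraries 29.1, 33.7 and 77.1 CPM. WT NKT17 libraries had 64.4, 12.0 and 91.1 CPM and SKG NKT17 libraries 120.0, 134 and 161 CPM. NKT1 libraries lay above all others in both genotypes, and the spread within a group was wide, with a coefficient of variation of 15.0% to 72.1% over the groups.

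The Rgs1 level in NKT1 was above NKT2 by 4.30 (SE 0.72) and above NKT17 by 3.12 (SE 0.67) in WT on the log2 scale, and above NKT2 by 2.68 (SE 0.67) in SKG, all called under each of 25 alternatives. NKT1 over NKT17 in SKG was 1.13 (SE 0.63), without overlap and not called, but was called with a block for the title token (1.05), in a fit without the other groups (1.13) and without the 7_10 libraries (1.27). NKT17 over NKT2 was 1.18 (SE 0.68) in WT and 1.55 (SE 0.65) in SKG, neither called. Both were called without WT NKT17 replicate 2 (1.66 in WT and 1.55 in SKG) and without the 7_10 libraries (1.28 and 1.39). The SKG difference was also called without SKG NKT2 replicate 3 (2.14), in DESeq2 (1.56), with the block (1.68) and in a fit without the other groups (1.53). Between genotypes Rgs1 was -0.69 (SE 0.62) in NKT1, 0.93 (SE 0.68) in NKT2 and 1.30 (SE 0.64) in NKT17. These were not called by edgeR or DESeq2, while with a block for the title token the NKT17 difference was 1.58 and called. In NKT17 the libraries of the genotypes did not overlap, though within the tokens that both share the difference was 3.29 for 7_10 and 0.55 for 7_11.

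**Figure D2:**
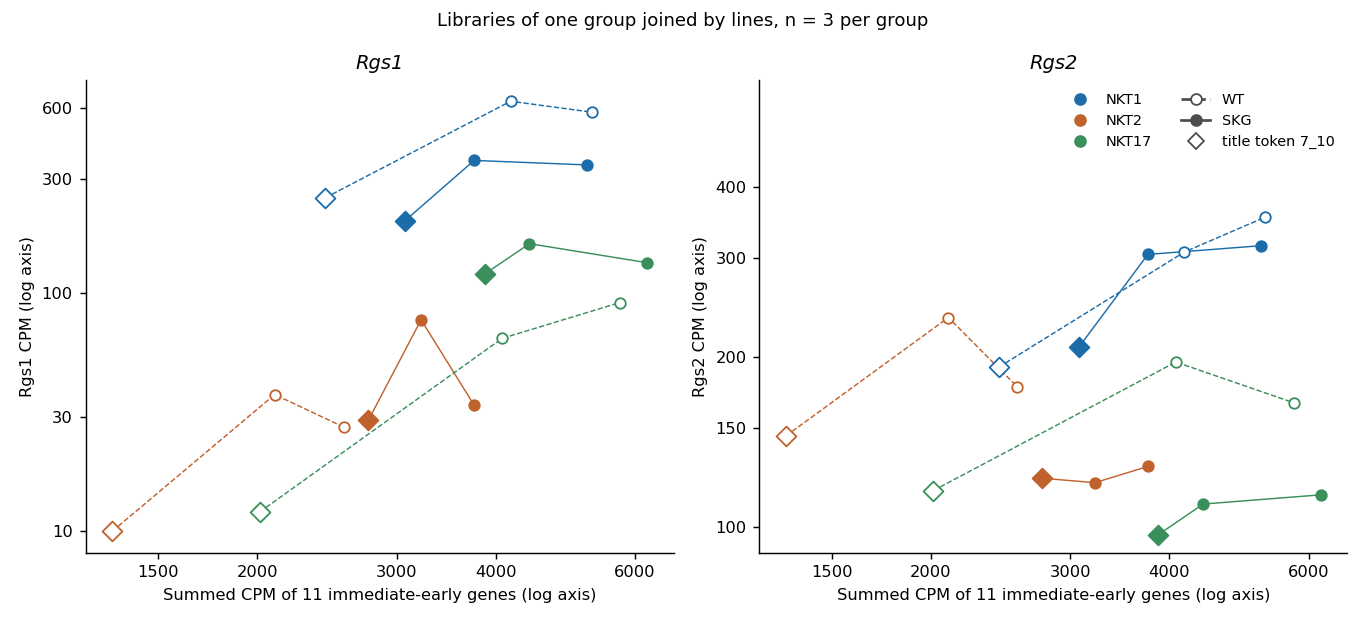
Level of Rgs1 (left) and Rgs2 (right, both in CPM on a log axis) against the summed CPM of 11 immediate-early genes (x axis, log) in each of the 18 libraries, with libraries of a group joined by a line. Diamonds are the libraries whose titles carry the token 7_10; these are the lowest of their group for Rgs1 and for the immediate-early sum in 6 of 6 groups.

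In all 6 groups the lowest library for Rgs1 was the one whose title carries 7_10, and the labels do not say what that token marks. The same library had the lowest sum of 11 immediate-early genes (among them Fos, Jun, Egr1 and Dusp1, which are induced within minutes by stimulation or cell handling) in 6 of 6 groups. In WT NKT17, where the second library is the 7_10 library, the sum was 4076, 2014 and 5742 CPM beside 64.4, 12.0 and 91.1 CPM of Rgs1. In WT NKT1 it was 4179, 2437 and 5288 CPM, and in WT NKT2 2104, 1312 and 2572 CPM, again with the 7_10 library second. In SKG, where it is the first, the sum was 3073, 5217 and 3758 CPM in NKT1, 2762, 3759 and 3220.5 CPM in NKT2, and 3874, 6212 and 4414 CPM in NKT17. Between 6 and 11 of the 11 genes were lowest in the 7_10 library, depending on the group. For Rgs2 that library was lowest in 5 of 6 groups. Of all tested genes, 0.279% (31 of 11118) had their lowest library there in every group. This pattern was noticed after the values were seen, and its part in the levels of Rgs1 and Rgs2 was not tested.

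Rgs2, which acts mainly on Gq and is itself an early-induced gene, was also highest in NKT1 on average. WT NKT1 libraries had 307, 192 and 354 CPM and SKG NKT1 libraries 208, 315 and 304 CPM. WT NKT2 libraries had 235, 145 and 177 CPM and SKG NKT2 libraries 122, 128 and 119.8 CPM. WT NKT17 libraries had 196, 116 and 166 CPM and SKG NKT17 libraries 96.9, 114 and 109.8 CPM. The WT subsets overlapped, while SKG NKT1 lay above the other SKG groups.

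On the log2 scale Rgs2 in NKT1 was above NKT17 by 0.84 (SE 0.23) in WT and 1.37 (SE 0.23) in SKG, and above NKT2 by 1.16 (SE 0.23) in SKG, all called under each of 25 alternatives. NKT1 over NKT2 in WT, 0.62 (SE 0.23), was called but not under 6 alternatives, which included leaving out WT NKT1 replicate 1 (0.54) or 3 (0.42) and WT NKT2 replicate 2 (0.46) or 3 (0.57). Between genotypes Rgs2 was lower without overlap in SKG NKT2 (-0.59, SE 0.23) and SKG NKT17 (-0.57, SE 0.23), and the NKT1 groups overlapped (-0.04, SE 0.23). Neither difference was called by edgeR, while DESeq2 called both (-0.60 and -0.59). Without WT NKT2 replicate 2 the NKT2 difference was -0.74 and called, and without WT NKT17 replicate 2, the NKT17 difference was -0.76 and called; both libraries carry the token 7_10. Single libraries elsewhere in the fit also moved them across the threshold, the NKT2 difference (-0.59) without WT NKT17 replicate 2 and the NKT17 difference (-0.59) without WT NKT1 replicate 2.

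Rgs3, an RGS protein for Gi and Gq, was low in NKT17. WT NKT17 libraries had 110.3, 99.5 and 118 CPM and SKG NKT17 libraries 75.9, 75.0 and 89.7 CPM, whereas the NKT1 and NKT2 libraries of both genotypes ran from 244 to 411 CPM. NKT1 was above NKT17 by 1.74 (SE 0.12) in WT and 1.95 (SE 0.12) in SKG, and NKT17 was below NKT2 by a log2 of -1.65 (SE 0.12) in WT and -1.70 (SE 0.12) in SKG. These 4 differences were called under all 25 alternatives. NKT1 and NKT2 overlapped in both genotypes. SKG libraries lay below WT libraries in NKT2 (-0.39, SE 0.12) and in NKT17 (-0.45, SE 0.12), both under the fold of 1.5, and overlapped in NKT1 (-0.23, SE 0.12).

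Rgs10, a small RGS protein known mostly from macrophages and microglia, had the opposite order. NKT1 libraries had 118, 139 and 121 CPM in WT and 102, 95.6 and 124 CPM in SKG. NKT2 libraries had 231, 232 and 264 CPM in WT and 227, 196 and 235 CPM in SKG, and NKT17 libraries 265, 287 and 243 CPM in WT and 196, 187 and 231 CPM in SKG. NKT1 lay below NKT2 and NKT17 in both genotypes without overlap, with log2 differences of -0.95 and -1.08 in WT and -1.03 and -0.93 in SKG (SE 0.12 each), all called under each of 25 alternatives. NKT2 and NKT17 overlapped in both genotypes. In NKT17 the SKG libraries lay below the WT libraries (-0.37, SE 0.12, not called).

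Rgs16, an RGS protein for Gi and Gq that activation induces in T cells, was highest in WT NKT2. It had 55, 57 and 52 counts in WT NKT2 (11.2, 9.96 and 8.41 CPM) and 1, 0 and 4 counts in SKG NKT2. WT NKT17 libraries had 11, 8 and 5 counts and SKG NKT17 libraries 1, 1 and 2. WT NKT1 libraries had 0, 14 and 4 counts, and all SKG NKT1 libraries had 0. The gene passed the filter on low counts through WT NKT2, the group where it is high. Over the summed counts the WT level was 31.0 times the SKG level in NKT2 and 5.99 times in NKT17. In NKT1 no ratio is given, since SKG was at 0 and 14 of the 18 WT counts were in 1 library. Both ratios are descriptions that rest on at most 4 counts in any SKG library. No interval is given for them, as reads carried no molecular identifiers and summed counts leave out the spread between libraries.

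The fitted difference of Rgs16 in NKT2 was -4.91 (SE 1.02). Because the gene was kept in the fit through WT NKT2, this value and those of WT NKT2 against other groups are descriptions only. In NKT17 it was -2.52 (SE 1.11), without overlap and not called, except without WT NKT1 replicate 1 (-2.51). WT NKT2 was above WT NKT1 and WT NKT17, with log2 differences of -3.19 (SE 0.88) for NKT1 and -2.82 (SE 0.86) for NKT17. Between SKG subsets, where the highest library had 4 counts, Rgs16 was not called under any of 24 alternatives. Leaving out WT NKT1 replicate 1, which had 0 counts, also brought the NKT1 difference between genotypes past the thresholds.

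Rgs14, which carries an RGS domain and a motif that binds inactive Gi, and Rgs19 (GAIP), which acts on Gi, varied least with Gnai2. Libraries ran from 62.5 to 117 CPM for Rgs14 and from 271 to 419.6 CPM for Rgs19. Group means of Rgs14 ran from 80.0 ± 15.5 CPM in WT NKT2 to 108 ± 9.30 CPM in SKG NKT2, and those of Rgs19 from 286 ± 18.1 CPM in WT NKT17 to 368 ± 29.5 CPM in SKG NKT2. Ratios of the highest to the lowest mean were 1.35 and 1.29. For both genes the SKG libraries lay above the WT libraries in NKT2 and in NKT17, and each was called in 0 of the 12 comparisons by edgeR and by DESeq2, with an unadjusted p under 0.05 in 5 for Rgs14 and 4 for Rgs19. The log2 differences were 0.43 and 0.33 for Rgs14 (SE 0.13 each) and 0.20 and 0.30 for Rgs19 (SE 0.11 each), in NKT2 and NKT17.

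**Figure D3:**
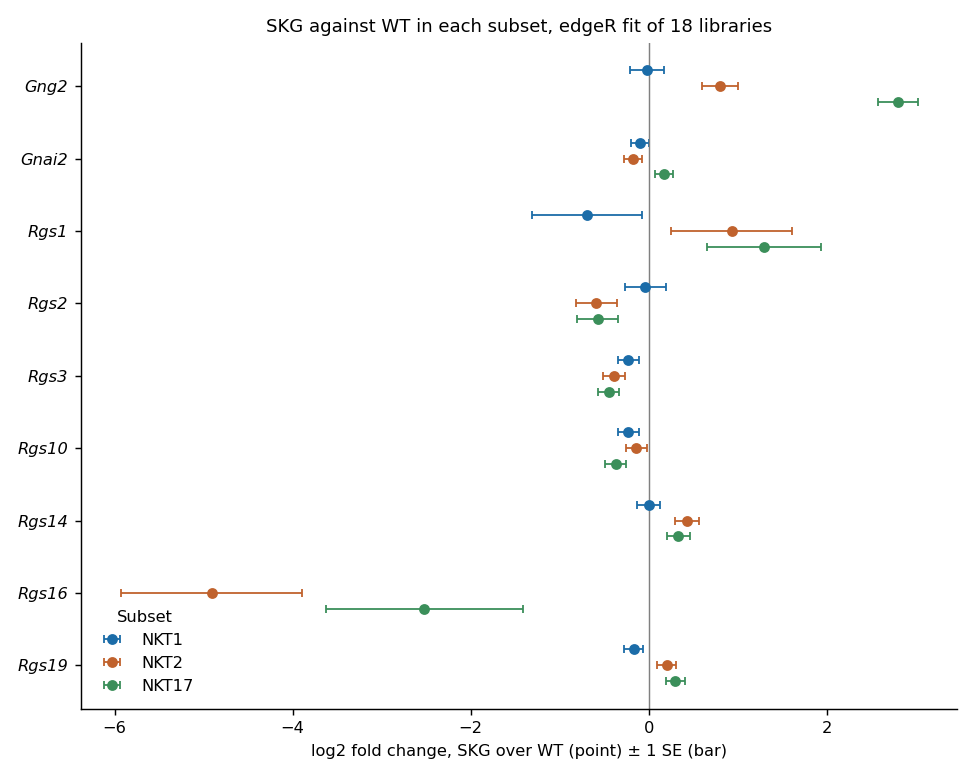
Log2 fold change of SKG over WT (x axis, points) ± 1 SE (bars) for the 9 genes (y axis) in NKT1, NKT2 and NKT17, from the fit of 18 libraries; Rgs16 in NKT1 is left out because its SKG libraries are all at 0. Gng2 in NKT17 (2.80) and Rgs16 in NKT2 (-4.91) lie farthest from 0, and the NKT1 points of the other genes lie within 0.69 of it.

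Counted over the 9 genes, SKG against WT gave 0 called genes in NKT1, 2 in NKT2 (Gng2 higher, Rgs16 lower) and 1 in NKT17 (Gng2 higher). Rgs16 passed the filter on low counts through WT NKT2, so its call in NKT2 is a description only. Over all tested genes the percentages called were 3.27% in NKT1, 7.95% in NKT2 and 8.37% in NKT17. In NKT1, where edgeR called 0 members, 1 member had an unadjusted p under 0.05 and DESeq2 called 1, in both cases Rgs16. Libraries of the genotypes did not overlap for 0, 6 and 9 of the 9 genes in NKT1, NKT2 and NKT17, against 16.3%, 30.1% and 26.9% of all tested genes. In NKT17 those 9 were Gng2, Gnai2, Rgs1, Rgs14 and Rgs19, higher in SKG, and Rgs2, Rgs3, Rgs10 and Rgs16, lower. The median log2 difference over the 9 genes was -0.17, -0.14 and 0.17 in the 3 subsets, beside -0.01, 0.00 and 0.00 over all tested genes. Because the genes were listed with results known, nothing is read from these counts.

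Between subsets, members were called in 5 of 9 cases for NKT1 against NKT2, 5 for NKT1 against NKT17 and 3 for NKT17 against NKT2 in WT, where 27.5%, 24.7% and 20.0% of all tested genes were called. Both WT comparisons with NKT2 include a call of Rgs16, which passed the filter on low counts through WT NKT2. In SKG the counts were 4, 4 and 1, where 18.7%, 22.8% and 18.8% of all tested genes were called. Non-overlapping members numbered 5, 7 and 3 in WT (41.6%, 34.1% and 37.2% of all tested genes) and 6, 6 and 5 in SKG (38.9%, 42.6% and 40.3%). For the differences of the SKG effect, 0 members were called for NKT2 minus NKT1, 1 for NKT17 minus NKT1 and 1 for NKT17 minus NKT2, against 3.87%, 4.17% and 2.19% of all tested genes. For the first of these, edgeR gave 3 members with an unadjusted p under 0.05, and DESeq2 called 1, Gng2. Comparisons within a genotype share libraries, so they are not independent of each other.

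**Figure D4:**
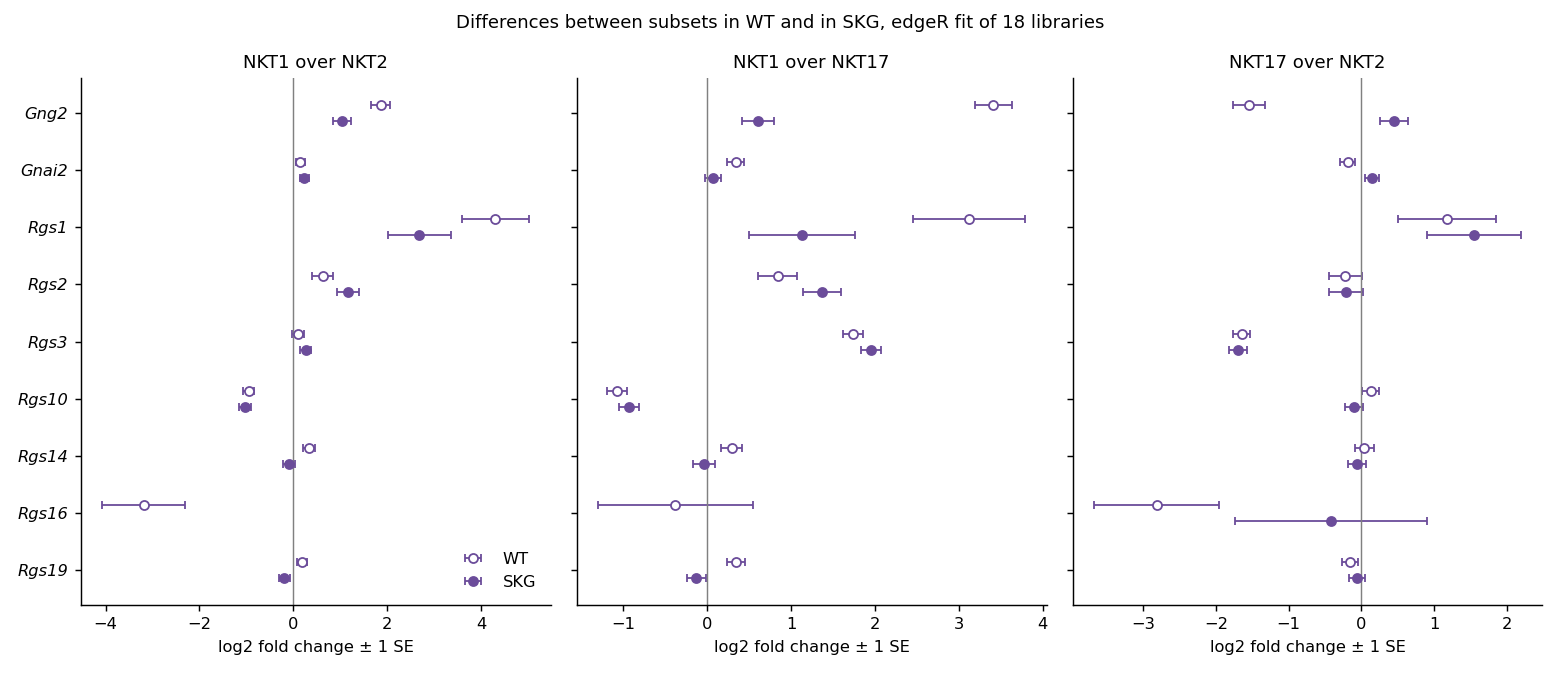
Log2 fold change between subsets (x axes, points) ± 1 SE (bars) for the 9 genes (y axis) in WT (open) and SKG (filled), from the fit of 18 libraries; Rgs16 is left out where a group is at 0 in all libraries. Rgs3 and Rgs10 lie at like values in WT and SKG, and Gng2 for NKT17 over NKT2 is at -1.55 in WT and 0.45 in SKG.

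Genes with the most similar pattern were found by Pearson's r on log2 CPM over the 18 libraries, which share groups, so r is a description. Gng2 was most like Pde4a (0.946), Dse (0.936) and Cd2 (0.935). Rgs1 was most like Mtus1 (0.947), Camta2 and Mcoln2, Rgs2 like Sfxn1 (0.918), Sipa1 and Gem, and Rgs3 like Ifih1 (0.967), Abcb9 and Prkcq. Rgs10 was most like Ramp1 (0.970), Ptprf and Clstn3. Gnai2, Rgs14, Rgs16 and Rgs19 had Ogdh (0.845), Tmem87b (0.882), Naa20 (0.906) and Cyba (0.804) as their nearest genes. These rankings depended on the measure. By Spearman's correlation the nearest gene stayed the same for Rgs1, Rgs2, Rgs14 and Rgs16. It became Lpcat4 for Rgs3, Atp6ap1 for Gnai2 and Mrpl55 for Rgs19. For Gng2 (Tnfrsf1a, Prkag1 and Anapc11) and Rgs10 (Kcnf1, Nipal1 and Fam96a) the Spearman ranking shared none of the genes named above. Among the members themselves the highest r was 0.70 for Gng2 and Rgs1, and the lowest -0.81 for Rgs1 and Rgs10.

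The rest of the pathway was taken by family, 63 tested genes outside the members. Between SKG and WT, 4 were called higher and 2 lower in NKT1, 7 higher and 1 lower in NKT2, and 8 higher and 0 lower in NKT17, which is 9.52%, 12.7% and 12.7% of the 63. The shares of all tested genes with a higher and with a lower call were 1.46% and 1.82% in NKT1, 3.90% and 4.05% in NKT2, and 3.83% and 4.54% in NKT17. In NKT17, where edgeR called 0 of the 63 lower, 4 were lower at an unadjusted p under 0.05 and DESeq2 called 1. Between subsets, 30 to 32 of the 63 were called in the WT comparisons and 24 to 28 in the SKG comparisons, which is 47.6% to 50.8% and 38.1% to 44.4%, beside 20.0% to 27.5% and 18.7% to 22.8% of all tested genes. Receptors made up most of the calls between genotypes.

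Of the other RGS genes 2 of 14 were tested, Rgs11 and Rgs12, and no other had more than 28 counts in a library. Rgs11, of the RGS family that pairs with Gnb5, rose in SKG NKT2 from 10.0 ± 1.00 to 26.1 ± 2.51 CPM (log2 1.38, SE 0.49, edgeR adjusted p = 0.0963). It stood near the threshold, was called under 8 of 25 alternatives, with adjusted p from 8.93e-04 to 0.230, and was not called without any one of the WT or SKG NKT2 libraries. Rgs12, a large RGS protein with a motif for inactive Gi, was lower in WT NKT1 (1.46 ± 1.30 CPM) than in WT NKT2 (15.9 ± 3.61 CPM), a log2 difference of -3.51 (SE 0.79, edgeR adjusted p = 0.00184).

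Of 8 tested other alpha subunits, Gna15, a Gq-class subunit that couples to many receptors, rose in SKG NKT17 from 6.61 ± 1.89 to 27.2 ± 3.51 CPM (log2 2.03, SE 0.34, edgeR adjusted p = 3.50e-04). It was also called higher in SKG NKT2 (5.94 ± 1.59 against 1.32 ± 0.886 CPM, log2 2.21, edgeR adjusted p = 0.00144). Like Gng2 it was highest in NKT1 among the WT subsets, at 16.4 ± 4.96 CPM, above NKT2 by 3.67 (edgeR adjusted p = 3.10e-07) and above NKT17 by 1.30 (edgeR adjusted p = 0.00524). Gnal, a stimulatory alpha subunit, was higher in WT NKT17 (68.3 ± 6.14 CPM) than in WT NKT1 (39.4 ± 1.88 CPM, edgeR adjusted p = 2.64e-04). Gna13, an alpha subunit of another class, was higher in WT NKT17 (102 ± 11.7 CPM) than in WT NKT2 (58.1 ± 18.4 CPM, edgeR adjusted p = 0.00310).

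Of the beta subunits, the partners of gamma subunits, and of the other gamma subunits, 0 of 4 and 0 of 4 tested genes were called between genotypes by edgeR or DESeq2, and 2 beta genes in NKT2 had an unadjusted p under 0.05. Gnb4 was low in NKT1, at 5.69 ± 3.82 CPM in WT against 34.3 ± 4.36 CPM in NKT2 and 32.2 ± 4.37 CPM in NKT17 (edgeR adjusted p = 1.97e-05 and 2.74e-05), and in SKG at 5.16 ± 2.40 CPM against 20.2 ± 4.58 and 33.1 ± 4.05 CPM (7.71e-04 and 1.65e-05). Gnb5, the partner of the Rgs11 family, was higher in WT NKT17 (13.8 ± 3.39 CPM) than in WT NKT2 (4.24 ± 2.32 CPM, edgeR adjusted p = 0.00745). Gng10 was higher in NKT1 than in NKT17 in WT (232 ± 26.2 against 136 ± 20.3 CPM, edgeR adjusted p = 1.71e-05). Gngt2 had the reverse order, with 16.9 ± 4.70 CPM in WT NKT1 and 32.1 ± 8.16 CPM in WT NKT17 (edgeR adjusted p = 0.0151), a call that was lost without the 7_10 libraries (edgeR adjusted p = 0.148).

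Among 10 tested effectors, Pik3r5, a regulatory subunit that makes phosphoinositide 3-kinase gamma responsive to beta-gamma dimers, rose in SKG NKT2 from 31.4 ± 4.17 to 62.9 ± 5.54 CPM (log2 1.01, SE 0.14, edgeR adjusted p = 3.47e-05). It also rose in SKG NKT17, from 37.5 ± 2.16 to 61.8 ± 4.13 CPM (log2 0.72, SE 0.14, edgeR adjusted p = 0.00125). Its NKT1 levels were 115 ± 10.4 CPM in WT and 116 ± 11.6 CPM in SKG, and the SKG effect was larger in NKT2 and in NKT17 than in NKT1, by 0.99 (SE 0.19) and 0.70 (SE 0.19) with edgeR adjusted p = 0.00348 and 0.0479. The second was not called without WT NKT17 replicate 1, SKG NKT1 replicate 3, SKG NKT17 replicate 3 or the 7_10 libraries, and its edgeR adjusted p over the alternatives ran from 0.0216 to 0.152. Pik3cg, the catalytic subunit, was called in neither NKT2 nor NKT17 between genotypes, with means of 46.9 to 58.9 CPM in these 4 groups. Between subsets, Prex1, a Rac exchange factor that beta-gamma dimers activate, was higher in WT NKT1 (mean 330.4 CPM) than in WT NKT2 (84.6 CPM, log2 1.97, SE 0.22, edgeR adjusted p = 1.48e-06). Plcb4, a phospholipase C, was at 29.9 ± 6.09 CPM in WT NKT17 and 1.49 ± 1.53 CPM in WT NKT1 (edgeR adjusted p = 1.14e-05).

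Among kinases and arrestins that switch receptors off, Adrbk2 (GRK3) was nearly restricted to NKT17, at 22.9 ± 6.42 CPM in WT and 25.5 ± 4.53 CPM in SKG, against at most 1.44 CPM on average in the other groups. Arrb2 (beta-arrestin 2) was higher in WT NKT1 (215 ± 3.48 CPM) than in NKT2 (106 ± 16.4 CPM) and NKT17 (123 ± 17.5 CPM), with edgeR adjusted p = 1.07e-06 and 2.24e-05. Gpsm1, whose protein holds alpha subunits in the inactive form, and Ric8, a chaperone and exchange factor for alpha subunits, were higher in WT NKT1 than in WT NKT2. Gpsm1 had 27.7 ± 4.56 against 7.85 ± 2.97 CPM (edgeR adjusted p = 5.65e-05) and Ric8 285 ± 25.6 against 141 ± 19.0 CPM (edgeR adjusted p = 3.10e-07).

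**Figure D5:**
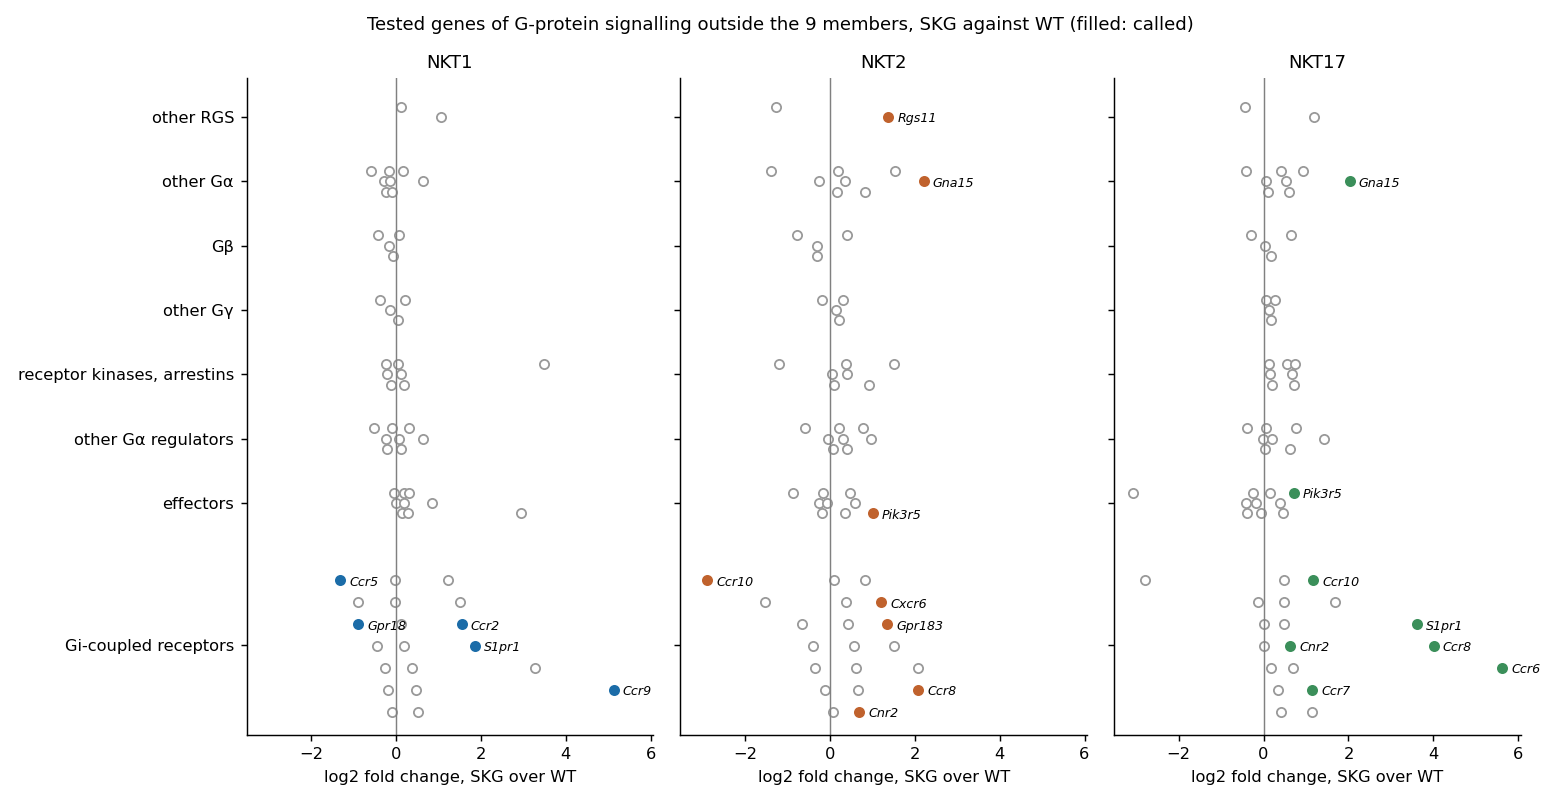
Log2 fold change of SKG over WT (x axis) for the tested pathway genes outside the 9 members by family (y axis; rows within a family are spread only to separate points) in NKT1, NKT2 and NKT17. Filled, named points were called; genes at 0 in every library of a group of that subset (Adcy6 in NKT1, Adcy1 in NKT2, Cx3cr1 in NKT17) are left out. The receptors Ccr6 (5.62) in NKT17 and Ccr9 (5.13) in NKT1 lie farthest to the right.

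Of 20 tested Gi-coupled receptors, whose signals the RGS proteins shorten, 3 were called higher and 2 lower in SKG NKT1, 4 higher and 1 lower in SKG NKT2, and 6 higher and 0 lower in SKG NKT17 by edgeR. In NKT17, 1 was lower at an unadjusted p under 0.05, and DESeq2 called 1 lower. The values were largest for Ccr6, also an NKT17 marker, in NKT17, at 12.0 ± 7.57 CPM in WT cells and 592 ± 26.4 CPM in SKG cells (log2 5.62, SE 0.47, edgeR adjusted p = 5.32e-06). Ccr8 was higher in SKG NKT17 (51.0 ± 12.4 against 3.26 ± 1.71 CPM, edgeR adjusted p = 2.41e-07) and in SKG NKT2 (191 ± 29.7 against 45.2 ± 10.3 CPM, edgeR adjusted p = 3.23e-05). S1pr1, the receptor that guides egress from the thymus, was higher in SKG NKT17 (20.5 ± 3.97 against 1.62 ± 1.57 CPM, edgeR adjusted p = 2.52e-05) and SKG NKT1 (40.2 ± 9.07 against 11.0 ± 3.36 CPM, edgeR adjusted p = 0.00651). Ccr10 was lower in SKG NKT2 (9.50 ± 1.66 against 70.3 ± 32.3 CPM, edgeR adjusted p = 2.35e-05). In SKG NKT17 it was called in the opposite direction, higher by a log2 of 1.17.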

How the data were processed

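Poly-A RNA of sorted thymic iNKT cells was made into full-length cDNA by a Smart-seq2-like method, tagmented with Tn5 and read as single ends. The deposited values are raw counts per gene symbol. For these the authors filtered reads, aligned them with TopHat 1.4.1 and ran htseq-count in its union mode. The study's methods name the mm9 build, and the submitters' processing notes list mm10 and hg19 beside HTSeq 0.7.1, so the build is uncertain. The annotation and strand setting of the counting are not given in the sources used here. Coordinates are from GENCODE M1 on NCBIM37, joined by symbol.

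Columns were joined to samples by title, and 2 columns of no listed sample were left out. Replicates were numbered in accession order. Libraries of a group differed by more than sampling noise (chi-square per degree of freedom at least 5.47). Genes were kept with filterByExpr by group. A robust quasi-likelihood model was fitted to all 6 groups in edgeR 4.0.16 (R 4.3.3) with TMM factors of 0.928 to 1.07. It had 12 residual degrees of freedom, and the common biological coefficient of variation was 21.1%. CPM values use TMM-scaled library sizes, and log2 CPM for likeness a prior count of 2. P-values measure only the spread between these libraries. The fits were tested on simulated data, with 200 genes changed in SKG NKT17. Apart from these genes, the simulation gave all groups the same levels and held no pattern by title token. Its rates may not carry over to the real libraries. The main fit called 57 of 100 genes changed 2-fold and 86 of 100 changed 4-fold, with 12 false calls. A difference that was not called is therefore not shown to be absent.

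The members and the lists of other genes were chosen with earlier results of these data known. Other pathway genes are named from those called with at least 50 counts on average in the higher group, up to 3 of the largest differences per family and comparison. Likeness covered tested genes with a mean of at least 10 CPM, with Spearman's correlation as the alternative measure. Gna15 in NKT2, Adcy6 and Ccr9 in NKT1, Ccr10 in NKT17 and Pik3cg were added after their values were seen. The same holds for the differences of the SKG effect for Pik3r5 and the untested RGS genes.

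Alternatives were DESeq2 1.42.0, RLE and upper-quartile scaling, no filter, fits without the other groups, a block for the title token, each library left out in turn, and, added after the data were seen, all 7_10 libraries left out. The tokens 7_5, 7_10, 7_11 and 7_21 recur across subsets, and the labels do not say what they mark. Only WT libraries carry 7_5 and only SKG libraries carry 7_21, so token and genotype are partly confounded. Deviations from group means correlated by -0.15 to 0.35 in 36 pairs of libraries with the same token (median 0.05, 12 over 0.1) and by -0.37 to 0.22 in 99 other pairs. All 3 pairs passed 0.1 for WT NKT2 with WT NKT17 alone, a comparison in which the block changed no call of a member. The main fit held no term for the token. This cut-off cannot show that the token has no part in other comparisons. Rgs1 and the immediate-early sum were lowest in the 7_10 library in 6 of 6 groups. Between genotypes, the block brought Rgs1 in NKT17 and Rgs16 in NKT1 past the thresholds.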

Additional observations from a re-analysis of the deposited data

Results flagged for a closer look

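The difference of Gng2 between SKG and WT was not the same in the 3 subsets. It was larger in NKT17 than in NKT1 by 2.82 (SE 0.29) and larger in NKT17 than in NKT2 by 2.00 (SE 0.29) on the log2 scale, as fitted in edgeR. These differences are listed here because they passed the study's thresholds across all tested genes. In WT, NKT17 libraries had 6.05 to 11.7 CPM and were the lowest for this gene, and in SKG, NKT17 libraries had 56.5 to 69.3 CPM and lay between NKT2 and NKT1. Since Gng2 was listed with results of these data known, the difference is given as a description.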

How the results depend on the processing

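With DESeq2, other scalings, no filter on low counts, fits without the other groups, a block for the title token, each library left out, and the 7_10 libraries left out (the last chosen after seeing the data), none of the 27 differences of members that were called changed sign, and 24 were called throughout, 3 of them differences of Rgs16 against WT NKT2, the group through which it passed the filter. Exceptions were Gng2 between genotypes in NKT2, Rgs2 between WT NKT1 and WT NKT2, and Gng2 between SKG NKT1 and SKG NKT17. Of the member differences that were not called, 15 changed sign under some alternative. The cause of these changes was not tested. Members called went from 0 to 1 for SKG against WT in NKT1 (DESeq2, no filter, block, and 0 to 1 with a library left out), from 1 to 2 in NKT17 (DESeq2, block, without the 7_10 libraries, and 1 to 2 with a library left out), from 1 to 2 between SKG NKT17 and NKT2 (those settings, and the fit without the other groups), from 0 to 1 for the SKG effect in NKT2 minus NKT1 (DESeq2, and 0 to 1 with a library left out) and from 1 to 2 in NKT17 minus NKT1 (block). Over all tested genes, the calls between genotypes fell without the 7_10 libraries, which leaves 2 libraries a group, from 364 to 171 in NKT1, 884 to 577 in NKT2 and 931 to 600 in NKT17, and those for the SKG effect from 430 to 203 (NKT2 minus NKT1), 464 to 216 (NKT17 minus NKT1) and 244 to 83 (NKT17 minus NKT2). The fit without the other groups called 207 genes in NKT1. With a library left out, the effect differences gave 296 (without SKG NKT17 replicate 3) to 537 genes for NKT17 minus NKT1 and 157 (without SKG NKT17 replicate 1) to 266 for NKT17 minus NKT2.

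With the replicate block for the title token, 390, 1044 and 913 genes were called between genotypes in NKT1, NKT2 and NKT17. The block brought Rgs1 in NKT17 (1.58), Rgs16 in NKT1 and 2 further Rgs1 differences in SKG cells and 1 in the SKG effect past the thresholds and ended no call of a member. Upper-quartile scaling moved the median of all genes by -0.103 (log2) for NKT1 over NKT2 in WT, the largest such shift. At these depths the level of a gene with few counts, such as Rgs16 in SKG cells, is imprecise. The parts of counting error and of the spread between libraries in this were not tested.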
